A study of Mus musculus with 12 samples.

Results

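Integrins are heterodimeric cell-surface receptors, and 10 genes encoding their α or β subunits were followed in bone marrow-derived macrophages (BMDMs): Itgb2 with its partners Itgam, Itgal and Itgax, Itgb1 with Itga4, Itga5, Itga6 and Itgav, and Itgb7. The genes were chosen by name, with earlier results of these data known, and all 10 were found among the 23997 genes measured. All 10 also had at least 1 FPKM (sequenced fragments scaled to transcript length and library size) in at least 3 libraries, as did 10581 genes in all, which were the genes tested. RNA-seq of mRNA gave 12 libraries, 3 from each of 4 groups. The groups were untreated WT BMDMs, untreated Pim1-/- BMDMs, WT BMDMs given LPS and Pim1-/- BMDMs given LPS. LPS (lipopolysaccharide, a bacterial cell wall component sensed by TLR4) was used at 100 ng/ml for 4 h. Every group came from C57BL/6 marrow of male mice aged 8 to 10 weeks, matured for 7 days in human macrophage colony-stimulating factor at 10 ng/ml. Pim1 encodes a serine/threonine kinase, and the Pim1-/- mice were made by CRISPR/Cas9 deletion of exons I to V in the germ line, so that every cell type of the culture carried the deletion. Nothing in the sources used here says whether the 3 libraries of a group came from separate mice or cultures, and the p-values then measure the spread between these libraries, which may be technical.

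Each integrin pairs an α with a β subunit, and the pair decides what the receptor binds. The β2 integrins are found on leukocytes and bind ICAMs, fibrinogen and complement C3 fragments, while β1, β7 and αv integrins bind VCAM-1, fibronectin, laminins, E-cadherin or osteopontin. Integrins are held inactive until talin and kindlin bind the β tail under control of the GTPase Rap1, and once bound to ligand they signal through Src-family kinases, Syk, Fak or Pyk2, and adaptors at the actin cytoskeleton.

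Pim1 itself checked the labels. Its level was 22.9 ± 1.80 FPKM (mean ± SD, n = 3) in untreated WT and 8.73 ± 0.752 FPKM in untreated Pim1-/- cells, and 645.4 ± 17.8 FPKM against 218.9 ± 15.6 FPKM after LPS, so the Pim1-/- libraries were lower in both treatments but kept Pim1 fragments. A gene value does not tell which exons these fragments came from. Replicates of a group correlated at r = 0.9958 to 0.9978 across genes, and no library was a copy of another. The deposited values summed to 452511 to 489710 FPKM in untreated and 713307 to 849323 FPKM in LPS-treated libraries. The value of 1 fragment, read from the smallest values, placed the depth at 315 to 827 fragments per library for Itgax, the least sampled of the 10 genes, and at 16902 to 50341 for Itgb1, the most sampled.

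The macrophage label held: all 8 macrophage markers, Adgre1, Csf1r, Cd68 and Lyz2 among them, were above 1 FPKM in every group. Their summed level was lower without Pim1, at 27805 to 29857 FPKM in untreated WT against 14350 to 15269 FPKM in untreated Pim1-/- libraries, and at 30706 to 31194 FPKM against 15862 to 17732 FPKM after LPS. Lyz2, the lysozyme of myeloid cells, made up most of these sums. Csf1r, the M-CSF receptor, was at 763.8 ± 23.4 FPKM in untreated WT and 254.3 ± 21.3 FPKM in untreated Pim1-/- cells. The 8 markers did not fall alike between untreated genotypes, with log2 differences from -1.67 to -0.06. Cd68 differed by -0.28, and the libraries of the genotypes overlapped for Cd14, the marker at -0.06. In bulk RNA, fewer cells of a type and less RNA per cell cannot be told apart, and the part these markers have in the integrin differences was not tested. The 8 dendritic cell markers were all under 1 FPKM in every group, with Flt3, Zbtb46 and Clec9a among them, and summed to between 0.804 and 2.84 FPKM. Of 7 neutrophil markers measured, S100a8 was highest, at 1.29 FPKM in untreated WT and 3.41 to 3.85 FPKM in the other groups, and the list summed to at most 8.20 FPKM. Of 6 megakaryocyte and platelet markers, 5 were under 1 FPKM in every group, and Pf4, which macrophages can also express, was at 16.1 FPKM in untreated WT, 39.1 FPKM in untreated Pim1-/-, 35.4 FPKM in WT after LPS and 60.8 FPKM in Pim1-/- after LPS. The T and NK cell list summed to at most 5.40 FPKM, nearly all of it Cd4, and the B cell list to at most 1.57 FPKM. Hdc led the mast cell and basophil list, at 49.7 FPKM in WT after LPS, and Kdr the stromal and endothelial list, at 26.4 FPKM in WT after LPS.

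Promoter sequences are shown for Itgam and Itgax, neighbours on chromosome 7 that moved in opposite directions between genotypes, and for Itga4 and Itgav, which both rose steeply with LPS. Each is the 250 bases before the RefSeq start (build GRCm38.p6), 5′ to 3′ on the gene's own strand, at chr7:128062390-128062639, chr7:128129300-128129549, chr2:79255176-79255425 and chr2:83724147-83724396 in that order, all on the plus strand. Capitals mark letters that match GAGGAA (the core bound by PU.1, the macrophage lineage factor), TGANTCA (the AP-1 site) or GGGCGG (the Sp1 box) on either strand, and no match overlapped another.
Itgam: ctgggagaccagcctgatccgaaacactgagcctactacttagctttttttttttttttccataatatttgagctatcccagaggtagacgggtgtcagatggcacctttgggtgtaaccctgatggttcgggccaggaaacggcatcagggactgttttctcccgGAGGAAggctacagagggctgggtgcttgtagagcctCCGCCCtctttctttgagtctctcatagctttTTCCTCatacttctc
Itgax: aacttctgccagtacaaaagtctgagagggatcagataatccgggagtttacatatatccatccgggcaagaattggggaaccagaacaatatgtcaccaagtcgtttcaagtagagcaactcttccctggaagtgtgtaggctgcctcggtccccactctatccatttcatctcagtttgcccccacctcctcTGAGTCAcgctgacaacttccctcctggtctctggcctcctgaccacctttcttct
Itga4: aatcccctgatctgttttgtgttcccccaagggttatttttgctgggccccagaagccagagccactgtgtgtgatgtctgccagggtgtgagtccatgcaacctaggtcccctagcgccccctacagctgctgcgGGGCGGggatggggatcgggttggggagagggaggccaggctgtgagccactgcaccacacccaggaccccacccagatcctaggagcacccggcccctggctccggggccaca
Itgav: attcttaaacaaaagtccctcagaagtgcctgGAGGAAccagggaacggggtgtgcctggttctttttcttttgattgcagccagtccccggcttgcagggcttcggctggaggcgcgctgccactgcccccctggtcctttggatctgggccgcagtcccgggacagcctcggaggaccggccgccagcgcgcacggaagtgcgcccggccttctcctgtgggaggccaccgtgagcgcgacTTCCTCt
The Itgam window held 2 GAGGAA matches and 1 GGGCGG match, and the Itgav window 2 GAGGAA matches. The Itgax window held the 1 TGANTCA match seen among the 7 member promoters available (Itga4, Itga5, Itgam, Itgav, Itgax, Itgb1 and Itgb7), and the Itga4 window 1 GGGCGG match. GAGGAA was present in 4 of these 7 windows and in 23.3% of all 32851 promoter windows of the same length, GGGCGG in 4 of 7 and 32.7%, and TGANTCA in 1 of 7 and 6.75%. The NF-κB consensus was searched as well, was in 3.9% of all windows, and matched in 0 of the 7. These matches are descriptions of letters only.

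The β chain gene was the most abundant single gene of the β2 family in every group. Itgb2 encodes CD18, the β chain shared by the leukocyte integrins LFA-1, Mac-1 and CD11c/CD18, and lies at 77530252 to 77565708 on the plus strand of chromosome 10 (GRCm38, GENCODE gene models, as for all positions given). It stood at 193.4, 184.7 and 188.4 FPKM in the untreated WT libraries and at 167.4, 171.7 and 179.1 FPKM in the untreated Pim1-/- libraries. After LPS it stood at 168.9, 166.9 and 168.5 FPKM in WT and at 173.3, 164.8 and 186.5 FPKM in Pim1-/-. As deposited it was the flattest gene of the family. In the order of group means each neighbouring pair overlapped, and untreated WT was the highest group. That flatness depended on the scaling. With all libraries scaled to a common FPKM sum, the log2 change with LPS was -0.97 in WT and -0.64 in Pim1-/- cells. Under quantile normalization these changes were -1.34 and -0.84.

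Itgam, which encodes CD11b, the α chain of Mac-1 and complement receptor 3, lies at 128062640 to 128118491 on the plus strand of chromosome 7. It stood at 79.7, 80.4 and 82.8 FPKM in untreated WT libraries and at 46.8, 50.8 and 53.0 FPKM in untreated Pim1-/- libraries. With LPS it came to 105.9, 107.0 and 101.3 FPKM in WT and at 53.3, 53.7 and 59.6 FPKM in Pim1-/-. Every Pim1-/- library was under every WT library, treated or not, and all 4 groups were apart. Itgam is also used as a myeloid marker, and it moved with genotype in the same direction as the macrophage marker sum given above.

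Itgal encodes CD11a, the α chain of LFA-1, and lies at 127296260 to 127335138 on the plus strand of chromosome 7. Untreated libraries had little of it in either genotype, at 6.93, 6.71 and 7.29 FPKM in WT and at 6.32, 6.84 and 7.17 FPKM in Pim1-/-. After LPS the WT libraries reached 92.0, 91.2 and 93.3 FPKM and the Pim1-/- libraries 36.3, 36.9 and 42.8 FPKM. The untreated genotypes overlapped, and the LPS-treated genotypes lay far apart.

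Itgax encodes CD11c, the α chain of complement receptor 4 and a marker of dendritic cells, and lies downstream of Itgam at 128129547 to 128150657 on the plus strand of chromosome 7. It was the lowest of the 10 genes in every group, at 3.51, 3.27 and 3.79 FPKM in untreated WT and at 4.40, 4.30 and 4.89 FPKM in untreated Pim1-/- libraries. After LPS it stood at 3.49, 3.97 and 3.99 FPKM in WT and at 4.87, 4.83 and 5.21 FPKM in Pim1-/-. Libraries sorted by genotype, with every Pim1-/- library above every WT library, whereas untreated and LPS-treated libraries of a genotype overlapped. Itgax thus ran opposite to Itgam between genotypes. The dendritic cell markers stayed under 1 FPKM, and their part in the Itgax difference was not tested.

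**Figure D1:**
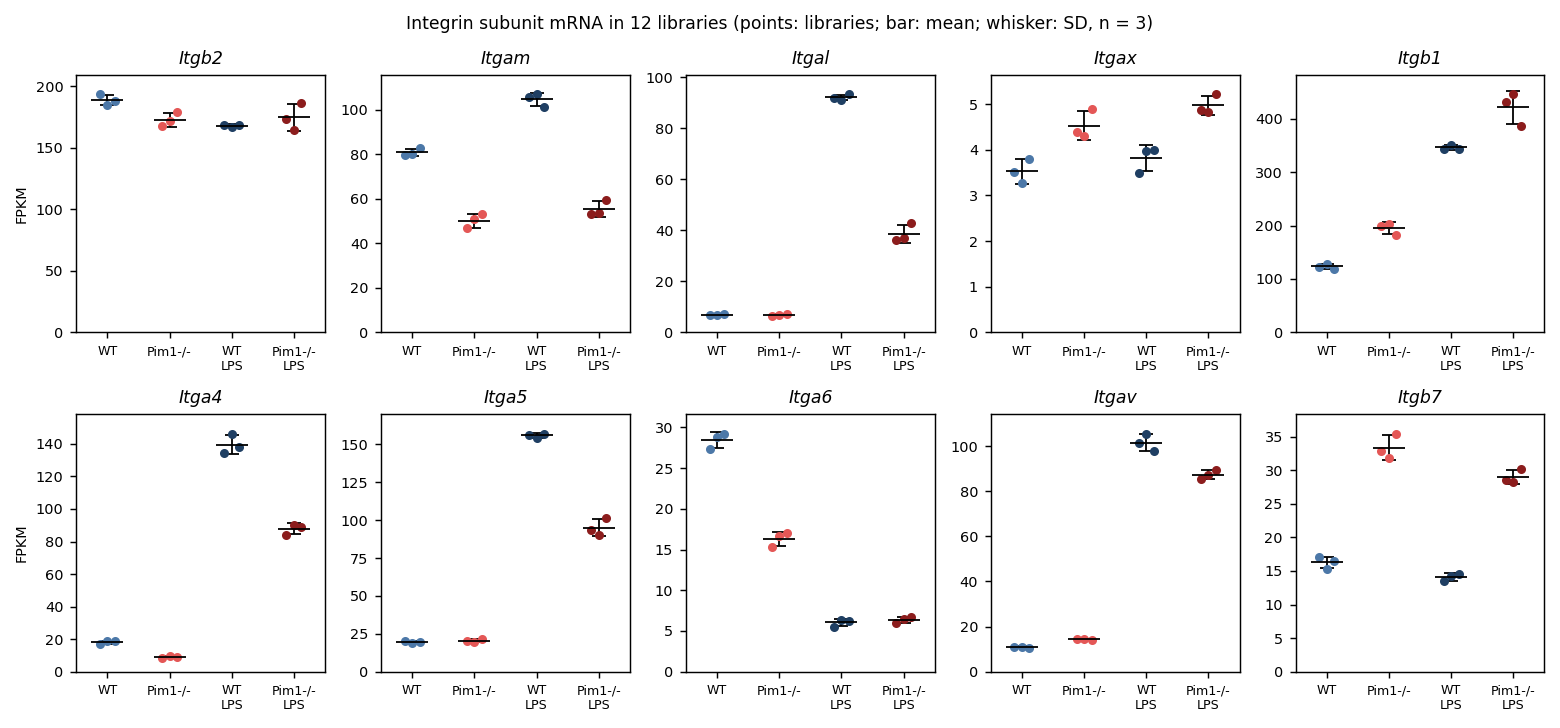
FPKM (linear axis from 0) of each of the 10 integrin genes in 12 libraries: points are libraries, horizontal bars are group means and whiskers are SD (n = 3). Itgb7 and Itgam sort by genotype, Itga6 falls from 28.5 FPKM in untreated WT to about 6 FPKM after LPS, and Itgal, Itga4, Itga5 and Itgav rise with LPS to a higher mean in WT than in Pim1-/- cells.

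Itgb1 encodes the common β1 chain and lies at 128685654 to 128733200 on the plus strand of chromosome 8. It stood at 123.0, 128.6 and 119.2 FPKM in untreated WT and at 198.8, 203.3 and 181.9 FPKM in untreated Pim1-/- libraries. Following LPS its values were 343.9, 351.7 and 342.8 FPKM in WT and at 431.8, 445.6 and 385.8 FPKM in Pim1-/-. All 4 groups were apart, Pim1-/- was the higher genotype in both treatments, and Itgb1 passed Itgb2 as the most abundant of the 10 in every group other than untreated WT.

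Itga4 encodes the α4 chain of VLA-4, which binds VCAM-1 and fibronectin, and lies at 79255426 to 79333123 on the plus strand of chromosome 2. It stood at 17.2, 18.8 and 18.8 FPKM in untreated WT and at 8.23, 9.72 and 9.27 FPKM in untreated Pim1-/- libraries. After LPS it stood at 134.4, 146.3 and 138.2 FPKM in WT and at 84.3, 90.4 and 89.1 FPKM in Pim1-/-. All 4 groups were apart, with Pim1-/- the lower genotype before and after LPS.

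Itga5 encodes the α5 chain of the fibronectin receptor and lies at 103344286 to 103366763 on the minus strand of chromosome 15. It stood at 20.0, 19.0 and 19.3 FPKM in untreated WT and at 20.3, 19.8 and 21.5 FPKM in untreated Pim1-/- libraries. With LPS it came to 156.2, 154.3 and 157.1 FPKM in WT and at 93.7, 90.0 and 101.1 FPKM in Pim1-/-. As with Itgal, the untreated genotypes overlapped and the treated genotypes did not.

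Itga6 encodes the α6 chain of laminin receptors and lies at 71745616 to 71858416 on the plus strand of chromosome 2. It stood at 27.4, 28.8 and 29.2 FPKM in untreated WT and at 15.4, 16.7 and 17.0 FPKM in untreated Pim1-/- libraries. After LPS it stood at 5.52, 6.39 and 6.23 FPKM in WT and at 6.00, 6.44 and 6.67 FPKM in Pim1-/-. Itga6 showed the reverse layout to Itgal and Itga5: the genotypes were apart without treatment and overlapped after LPS.

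Itgav encodes the αv chain, which pairs with β1, β3, β5 and β8 and binds RGD ligands such as vitronectin and osteopontin, and lies at 83724397 to 83806916 on the plus strand of chromosome 2. It stood at 11.1, 11.1 and 10.6 FPKM in untreated WT and at 14.6, 14.5 and 14.1 FPKM in untreated Pim1-/- libraries. Following LPS its values were 101.1, 105.5 and 97.9 FPKM in WT and at 85.5, 87.3 and 89.2 FPKM in Pim1-/-. As deposited the groups were all apart, and the order of the genotypes without treatment was the opposite of that after LPS. The Itgav difference after LPS (Pim1-/- minus WT, log2) depended on the scaling. It was -0.01 with all libraries scaled to a common FPKM sum and 0.04 under quantile normalization.

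Itgb7 encodes the β7 chain of α4β7, a gut-homing receptor of lymphocytes, and of αEβ7, and lies at 102215995 to 102231944 on the minus strand of chromosome 15. It stood at 17.0, 15.3 and 16.5 FPKM in untreated WT and at 32.9, 31.8 and 35.5 FPKM in untreated Pim1-/- libraries. After LPS it stood at 13.4, 14.2 and 14.6 FPKM in WT and at 28.5, 28.2 and 30.2 FPKM in Pim1-/-. All 4 groups were apart, and as deposited the genotypes differed far more than the treatments. With all libraries scaled to a common FPKM sum, the log2 change with LPS was -0.96 in WT and -0.84 in Pim1-/- cells. The genotype difference under that scaling was 1.06 without treatment and 1.17 after LPS. Of the 7 T and NK cell markers, Cd3e, Cd3g, Cd8a and Ncr1 were listed at 0 in every library, and Nkg7 in all but 1. Cd4 was higher in WT, at 4.96 ± 0.326 FPKM untreated against 0.432 ± 0.0264 FPKM in untreated Pim1-/- cells. Klrb1c, at low levels, shared the direction of Itgb7 between genotypes but not with LPS. Its mean rose from 0.0770 ± 0.0102 to 0.122 ± 0.0320 FPKM when WT cells were treated. The same step in Pim1-/- cells took it from 0.242 ± 0.0510 to 0.443 ± 0.149 FPKM. The mean of Itgb7 as deposited fell with LPS in each genotype. The part of Klrb1c in the Itgb7 difference was not tested.

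In untreated cells the loss of Pim1 went with lower Itga4, Itgam and Itga6 and with higher Itgb7, Itgb1, Itgav and Itgax. Itgb7 was 2.05-fold higher in Pim1-/- than in WT cells and Itgb1 1.57-fold higher, whereas Itga4 was 2.01-fold, Itga6 1.74-fold and Itgam 1.61-fold lower on the linear scale. Differences were tested with limma over all tested genes on log2(FPKM + 1), which shrinks changes, most of all those of genes at low FPKM. A gene is said to have changed where p was under 0.05 and the FDR by Benjamini-Hochberg under 0.1. By that rule 4 members were lower and 4 higher, beside 42.8% and 33.4% of all tested genes, so the share of changed members was close to the background. With the further requirement of a change over 2-fold on the fitted scale, 0 members were called, beside 3.37% of all genes called lower and 4.4% called higher. The study's threshold was also 2-fold, but it was not stated for log2(FPKM + 1) values. On the linear scale Itgb7 and Itga4 were past 2-fold, as given above. Itgb7, at a log2 difference of 0.99 ± 0.05 (SE, limma adjusted p = 1.7e-10), and Itga4, at -0.93 ± 0.06 (adjusted p = 9.6e-10), lay just inside the 2-fold line of the fitted scale. Itgb7 crossed that line when any 1 of 4 untreated libraries (WT replicate 1 or 3, Pim1-/- replicate 1 or 2) was left out, at 1.00 to 1.03. Itga6 differed by -0.77, Itgam by -0.68, Itgb1 by 0.65, Itgav by 0.37 and Itgax by 0.29, with adjusted p from 1.2e-08 to 0.0007. Itgb2 was lower by a small margin, at -0.13 (adjusted p = 0.019), and no longer passed without WT replicate 1 or without Pim1-/- replicate 1, at -0.11 each, or with all libraries scaled to a common FPKM sum, at -0.07. Itga5 and Itgal did not pass, at 0.07 (95% interval -0.03 to 0.17, though 0.13 and passed with the common FPKM sum) and -0.04 (-0.17 to 0.09, with the sign reversed to 0.01 under that same scaling). The median difference of the 10 was 0.02, against -0.05 over all genes tested.

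After LPS the genotypes differed most in Itgal, which was 2.38-fold lower in Pim1-/- than in WT cells, and in Itgb7, which was 2.06-fold higher. Itgam was 1.88-fold, Itga5 1.64-fold and Itga4 1.59-fold lower without Pim1, and Itgax was 1.30-fold and Itgb1 1.22-fold higher. In all, 5 members were lower and 3 higher, beside 42.2% and 36.4% of all tested genes, again near the background share. Only Itgal was called at more than 2-fold on the fitted scale (log2 difference -1.24 ± 0.06, SE, limma adjusted p = 5.1e-11), 1 of 10 lower and 0 higher, beside 5.15% and 3.51% of all genes. Under quantile normalization the Itgal difference was -0.87 and no longer past 2-fold, while Itgb7, at 1.01, was the 1 gene called. Itgb7 differed by 0.99 (adjusted p = 1.6e-10), Itgam by -0.90 (3.9e-10), Itga5 by -0.71 (1.7e-09) and Itga4 by -0.66 (4.6e-08). Quantile normalization took Itgam to -0.57, Itga5 to -0.40 and Itga4 to -0.37, all of which still passed. Leaving out WT replicate 3, Pim1-/- replicate 1 or Pim1-/- replicate 2 of the LPS-treated libraries put Itgb7 past 2-fold, at 1.00 to 1.02, and raised the count from 1 to 2. Itgax, at 0.31, Itgb1, at 0.28 (0.48 under a common FPKM sum and 0.51 under quantile normalization), and Itgav, at -0.21, showed smaller differences, and that of Itgav no longer passed under a common FPKM sum, at -0.01, or under quantile normalization, where its sign turned, at 0.04. Itga6 (0.07, 95% interval -0.06 to 0.19) and Itgb2 (0.06, -0.04 to 0.15) did not pass, but both were higher in Pim1-/- cells with a common FPKM sum (0.24 and 0.26), and Itgb2 under quantile normalization (0.29). The common sum moved the median of all tested genes in this comparison to 0.12, relative to which Itgb2 was at 0.14. The median of the 10 was -0.08 and that of all tested genes -0.03.

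**Figure D2:**
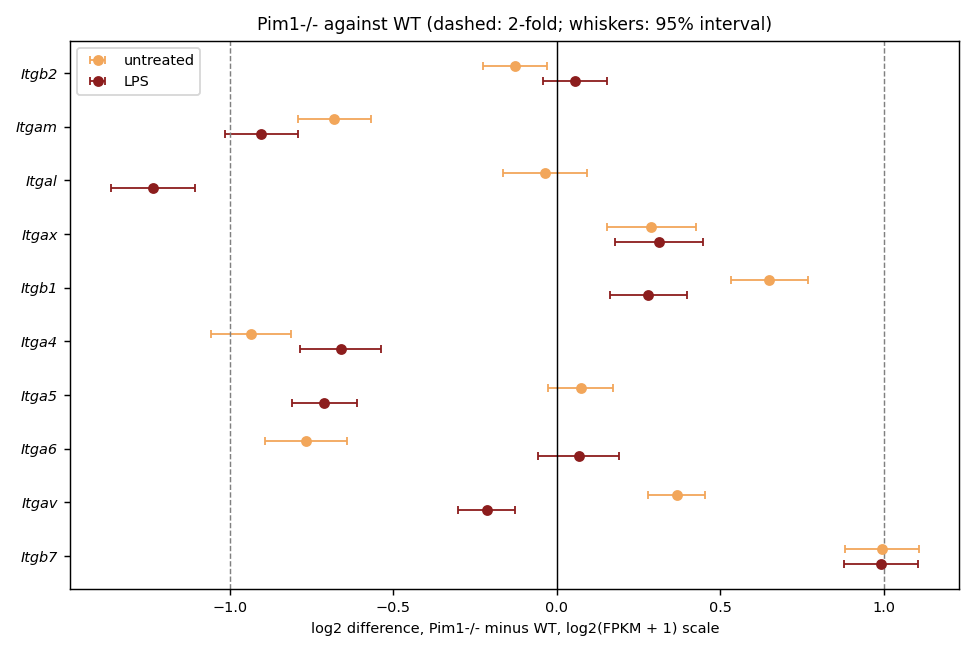
Log2 difference between Pim1-/- and WT cells (x axis, log2(FPKM + 1) scale) of the 10 integrin genes without treatment and after LPS: points are limma estimates, whiskers are 95% intervals, and dashed lines mark 2-fold. Itgal and Itga5 sit near 0 without treatment and at -1.24 and -0.71 after LPS, Itga6 moves from -0.77 to 0.07, and Itgb7 stays at 0.99 in both; the sign after LPS of Itgav, and that without treatment of Itgal, depended on the scaling.

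LPS raised 4 α subunit genes steeply and lowered one. In WT cells Itgal rose 13.2-fold, Itgav 9.28-fold, Itga5 8.01-fold and Itga4 7.66-fold, Itgb1 rose 2.80-fold, and Itga6 fell 4.71-fold on the linear scale. By the rule without a fold threshold 6 members rose and 3 fell, beside 45.0% and 44.6% of all tested genes. Past 2-fold, 5 were called higher and 1 lower, beside 20.1% and 14.7% of all genes. On the fitted scale Itgal rose by 3.55, Itgav by 3.10, Itga5 by 2.94, Itga4 by 2.87 and Itgb1 by 1.48, and Itga6 fell by 2.07, with SE from 0.04 to 0.06 and limma adjusted p from 6.2e-19 to 3.2e-13. The size of these changes depended on the scaling. Under a common FPKM sum they were 2.78 for Itgal, 2.32 for Itgav, 2.15 for Itga5, 2.08 for Itga4 and -2.80 for Itga6. Itgb7 fell by 0.20 and Itgb2 by 0.17 (adjusted p = 0.0028 and 0.0029). With all libraries scaled to a common FPKM sum these were -0.96 and -0.97, and under quantile normalization -0.48 and -1.34, which put Itgb2 past the 2-fold call.

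In Pim1-/- cells the same 6 genes were past 2-fold, in the same directions: Itga4 rose 9.69-fold, Itgav 6.07-fold, Itgal 5.70-fold, Itga5 4.62-fold and Itgb1 2.16-fold, and Itga6 fell 2.56-fold. Here 6 members rose and 2 fell, beside 42.2% and 42.9% of all tested genes, and 5 were called higher and 1 lower, beside 14.6% and 10.4%. On the fitted scale the changes were 3.14 for Itga4, 2.52 for Itgav, 2.35 for Itgal, 2.15 for Itga5, 1.11 for Itgb1 and -1.23 for Itga6. Under a common FPKM sum they were 2.52 for Itga4, 1.88 for Itgav, 1.74 for Itgal, 1.51 for Itga5 and -1.84 for Itga6. Itgb7 fell by 0.20 in this genotype as well (limma adjusted p = 0.0028), and stood at -0.84 under the common sum and -0.64 under quantile normalization.

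The direction of the small LPS responses depended on the scaling. Itgam changed by 0.37 in WT and 0.14 in Pim1-/- cells as deposited (limma adjusted p = 6.9e-06 and 0.019), but by -0.44 and -0.51 with all libraries scaled to a common FPKM sum and by -0.64 and -0.49 under quantile normalization. The Itgam rise in Pim1-/- cells no longer passed without untreated Pim1-/- replicate 1 or treated Pim1-/- replicate 3, at 0.09 each. Itgax, at 0.09 and 0.11 (95% intervals -0.05 to 0.22 and -0.02 to 0.25), did not pass in either genotype and stood at -0.55 and -0.44 under the common sum. In Pim1-/- cells the replicate numbers were taken to pair the libraries. With them as a block, fitted over all 12 libraries, Itgax passed in Pim1-/- cells at the same 0.11 (limma adjusted p = 0.054). It also passed there without untreated Pim1-/- replicate 3, at 0.16. Quantile normalization gave Itgax 0.32 and 0.20, both of which passed. Itgb2, at 0.02 (95% interval -0.08 to 0.11) in Pim1-/- cells, stood at -0.64 under the common sum and at -0.84 under quantile normalization. The common sum moved the median of all tested genes by LPS to -0.67 in WT and -0.58 in Pim1-/- cells, and relative to that median Itgam was at 0.23 and 0.07, Itgax at 0.12 and 0.14, Itgb2 at -0.30 and -0.06, and Itgb7 at -0.29 and -0.26. Quantile normalization moved the same median to -0.18 in both genotypes, and Itgam remained below it, at -0.46 and -0.31. Itgb1 kept its direction but not its call, at 0.67 in WT and 0.45 in Pim1-/- cells under the common sum and at 0.35 and 0.23 under quantile normalization.

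**Figure D3:**
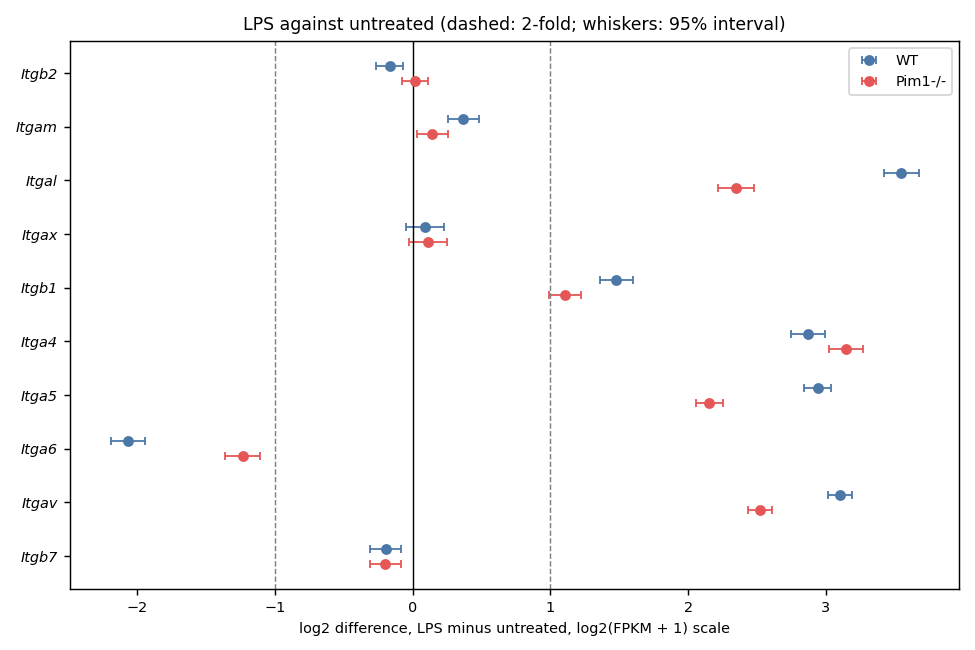
Log2 difference between LPS-treated and untreated cells (x axis, log2(FPKM + 1) scale) of the 10 integrin genes in WT and Pim1-/- BMDMs: points are limma estimates, whiskers are 95% intervals, and dashed lines mark 2-fold. Itgal, Itgav, Itga5, Itga4 and Itgb1 lie past 2-fold higher and Itga6 past 2-fold lower in both genotypes, while the values near 0 of Itgam and Itgax in both genotypes, and of Itgb2 in Pim1-/- cells, changed sign with the scaling.

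The LPS response itself differed between genotypes for 8 of the 10 genes. The test of the difference (the response in Pim1-/- minus that in WT) was lower for 5 and higher for 3, beside 34.7% and 31.3% of all tested genes. Such differences were thus common among all tested genes and not particular to the members. Past 2-fold, 1 was called lower and 0 higher, beside 4.43% and 2.24%. The called gene was Itgal, whose rise was smaller by 1.20 ± 0.09 (SE, limma adjusted p = 1.3e-08) in Pim1-/- cells, a difference of -0.85 and no call under quantile normalization. The rises of Itga5, Itgav and Itgb1 were also smaller, with differences of -0.78 (8.2e-08), -0.58 (5.2e-07) and -0.37 (adjusted p = 0.00072), of which that of Itgb1 came to -0.22 under the common FPKM sum and to -0.12, which did not pass, under quantile normalization, where that of Itga5 was -0.50. The rise of Itga4 was larger by 0.27 (adjusted p = 0.0087; 0.44 under the common sum and 0.69 under quantile normalization), and the fall of Itga6 was smaller, with a difference of 0.83 (4.8e-07). Itgam differed by -0.22 (adjusted p = 0.016), with -0.07 under the common FPKM sum and the sign reversed to 0.15 under quantile normalization, neither of which passed, and Itgb2 by 0.18 (0.022), with 0.33 and 0.50 under those scalings. Itgb7, at -0.00 (95% interval -0.16 to 0.16), and Itgax, at 0.02 (-0.17 to 0.21), gave no difference that passed, and both signs turned under other settings. The median of the 10 was -0.11, against -0.00 over all tested genes. All 4 pairwise comparisons and this one draw on the same 12 libraries, so their values are not independent of each other. Between the groups compared, library values did not overlap for 8 members between untreated genotypes, 8 between treated genotypes, 9 with LPS in WT and 8 with LPS in Pim1-/- cells. Over all tested genes the share was 78.4%, 77.5%, 90.4% and 83.8% in that order, so these counts are at the background.

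The order of the 10 genes also differed between groups. FPKM is a level per length, so genes can be ranked within a group. In untreated WT the order ran Itgb2, Itgb1, Itgam, Itga6, Itga5, Itga4, Itgb7, Itgav, Itgal and Itgax, with no neighbours overlapping. In untreated Pim1-/- cells Itgb1 came first and Itgb7 moved up to the place behind Itgam. After LPS Itgb1, Itgb2 and Itga5 led in both genotypes and Itga6 was next to last. Neighbours that overlapped after LPS were Itgam and Itgav in WT, and Itga5 with Itga4 and Itga4 with Itgav in Pim1-/-.

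Among the partners of Itgb2, Itgam supplied most of the α subunit mRNA in untreated cells, at 88.5% ± 0.390 (SD, n = 3) of the summed FPKM of Itgal, Itgam and Itgax in WT and 81.6% ± 0.350 in Pim1-/-. After LPS Itgal took 45.9% ± 0.959 in WT and 38.9% ± 0.727 in Pim1-/-. Itgax held 3.85% ± 0.216 in untreated WT, 7.37% ± 0.370 in untreated Pim1-/-, 1.90% ± 0.149 in WT after LPS and 5.02% ± 0.160 in Pim1-/- after LPS. All 3 Pim1-/- libraries were above all 3 WT libraries in both treatments, and LPS libraries were below untreated ones in both genotypes. The exact two-sided permutation test gave p = 0.1 in each of these 4 comparisons, the smallest that 3 against 3 can reach. Under quantile normalization the Itgax share no longer fell with LPS but stood higher by 0.40 percentage points in WT and by 0.33 in Pim1-/- cells.

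Among Itga4, Itga5, Itga6 and Itgav, the largest share in untreated WT was that of Itga6, at 36.9% ± 0.690, and it fell to 1.50% ± 0.0953 after LPS. In Pim1-/- cells Itga6 held 27.1% ± 0.691 without treatment and 2.30% ± 0.0656 with it. Itga5 held 25.2% ± 1.05 in untreated WT and 38.7% ± 1.10 after LPS, against 34.0% ± 1.21 and 34.3% ± 1.32 in Pim1-/- cells. The Itga5 share was thus higher in Pim1-/- libraries without treatment and lower after LPS, with all libraries apart (exact permutation p = 0.1 each, adjusted p = 0.1143 over the 8 share comparisons). Within Pim1-/- cells LPS moved it by 0.28 percentage points (exact permutation p = 0.6), a value smaller than the replicate SD. Itgav held 14.2%, 23.9%, 25.2% and 31.6% in untreated WT, untreated Pim1-/-, treated WT and treated Pim1-/- cells.

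The summed α partners were lower relative to the β chains without Pim1, with no overlap between the libraries of the genotypes in either treatment. Itgal, Itgam and Itgax together came to 0.485 ± 0.0168 (SD, n = 3) of Itgb2 in untreated WT and 0.356 ± 0.0108 in untreated Pim1-/- cells, and to 1.19 ± 0.0165 and 0.567 ± 0.0194 after LPS. Itga4, Itga5, Itga6 and Itgav together came to 0.624 ± 0.0258 of Itgb1 in untreated WT and 0.311 ± 0.0253 in untreated Pim1-/- cells, and to 1.16 ± 0.0089 and 0.660 ± 0.0705 after LPS. The ratio of Itgb1 to Itgb2 was 0.655 ± 0.0356 in untreated WT, 1.13 ± 0.0984 in untreated Pim1-/-, 2.06 ± 0.0417 in treated WT and 2.42 ± 0.323 in treated Pim1-/- cells, where the treated genotypes overlapped. These are ratios of mRNA levels within a library, which 1 scale factor for the whole library leaves alone. They were not taken under quantile normalization. Of the α chains set against Itgb1, αv also pairs with β chains other than β1, and α4 also with β7.

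**Figure D4:**
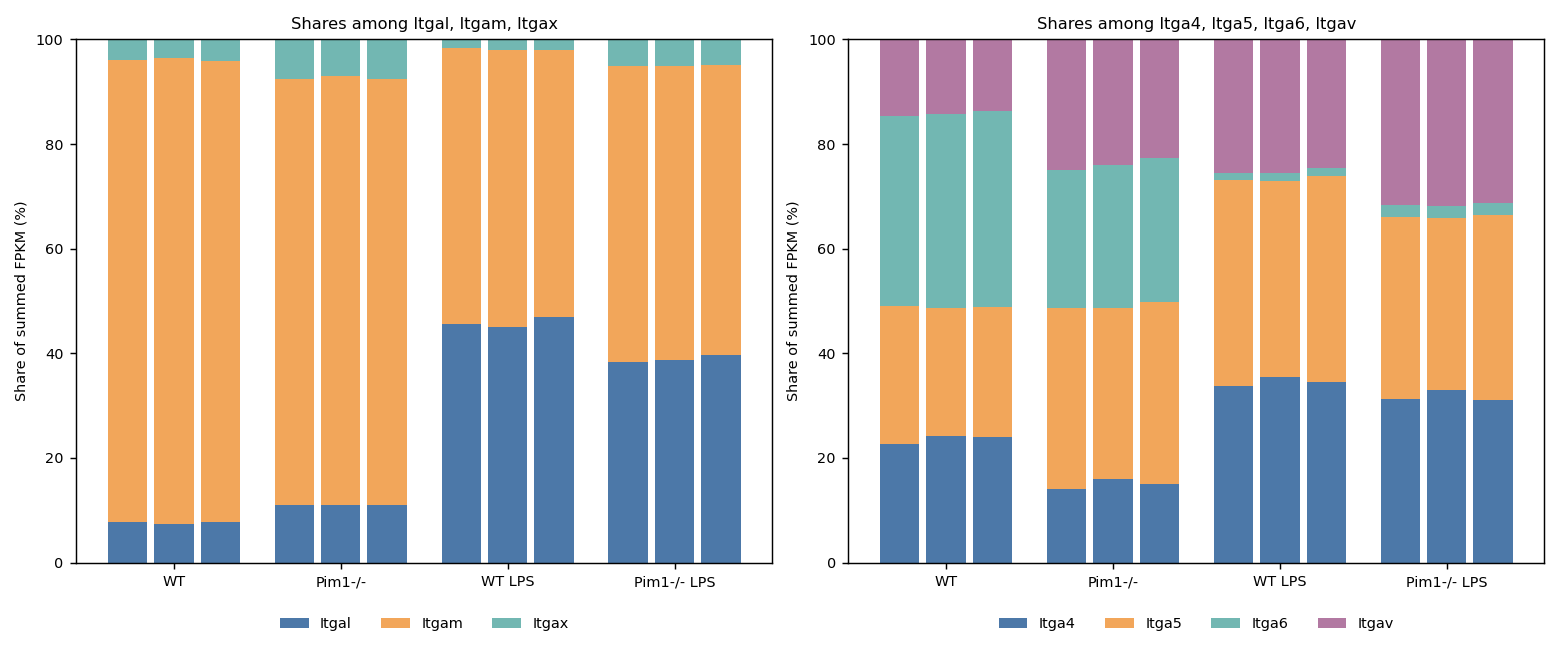
Share (%) of the summed FPKM taken by each α subunit gene in each of the 12 libraries (1 bar a library, 3 bars a group), among the Itgb2 partners at left and among Itga4, Itga5, Itga6 and Itgav at right. Itgal grows from 7.63% to 45.9% with LPS in WT and from 11.02% to 38.9% in Pim1-/- cells, and Itga6 shrinks from 36.9% and 27.1% to 1.50% and 2.30%.

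The remaining integrin subunits were mostly silent: of 17, only Itga9, Itgb3, Itgb5 and Itgb8 were expressed highly enough to be tested. Itga9 was called lower without Pim1 after LPS, at 2.10 ± 0.0367 FPKM with Pim1 and 0.340 ± 0.0570 FPKM without it (log2 difference -1.21). Itgb3, an αv partner, fell with LPS from 11.3 to 1.80 FPKM in WT and from 10.6 to 2.71 FPKM in Pim1-/- cells. Itgb8, another αv partner, was at or next to 0 in every untreated library, with 0.0078 FPKM as its highest value, and reached 9.90 ± 0.112 FPKM after LPS in WT, and 6.40 ± 0.414 FPKM in their Pim1-/- counterparts. Itgb5 stood at 103.2, 77.7, 56.2 and 53.1 FPKM in untreated WT, untreated Pim1-/-, treated WT and treated Pim1-/- cells. Of these 4 genes 2 were lower and 0 higher between untreated genotypes, and 2 lower and 1 higher after LPS, counts too small to set against the shares over all genes.

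Of 16 genes that regulate integrin activation, 12 were tested, among them Itgb1bp1, Sharpin and Flna, whose products restrain activation. Between untreated genotypes 7 were lower and 3 higher, beside 42.8% and 33.4% of all tested genes, with a median of -0.21 against -0.05 over all. After LPS 9 were lower and 2 higher, beside 42.2% and 36.4%, with a median of -0.53 against -0.03. The 1 gene called was Apbb1ip, the Rap1 effector RIAM, at 108.7 ± 3.26 FPKM in LPS-treated WT against 49.1 ± 3.92 FPKM in LPS-treated Pim1-/- cells (log2 difference -1.13). LPS raised Rap1b, the GTPase upstream of RIAM, by 2.40 in WT and 1.96 in Pim1-/- cells and Fyb, the adaptor ADAP, by 1.26 and 1.38, on the log2 scale. Rassf5, the Rap1 effector RAPL, fell by 2.12 in WT from 16.2 to 2.97 FPKM, and went from 9.39 to 4.98 FPKM in Pim1-/- cells, a response that differed by 1.32 and was called. In WT 4 genes of this list were called higher with LPS and 2 lower, beside 20.1% and 14.7% of all tested genes, and in Pim1-/- cells 2 higher and 0 lower, beside 14.6% and 10.4%.

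Of 22 signalling and adaptor genes 18 were tested, with 11 lower and 4 higher between untreated genotypes, and 14 lower and 2 higher after LPS (medians -0.26 and -0.59), to be read against the shares and medians over all genes just given. After LPS 3 were called lower and 0 higher, beside 5.15% and 3.51%. Zyx, the focal adhesion protein zyxin, stood at 156.2 ± 8.26 FPKM with Pim1 and 26.9 ± 2.37 FPKM without it (log2 difference -2.50). Ptk2b, the Fak relative Pyk2, was at 108.9 ± 1.88 and 38.8 ± 4.04 FPKM (-1.47). LPS raised 11 of the 18 past 2-fold in WT and 6 in Pim1-/- cells, beside 20.1% and 14.6% of all tested genes, and lowered 0 past 2-fold in either. Src rose from 0.489 to 67.4 FPKM in WT and from 0.215 to 34.5 FPKM in Pim1-/- cells. The responses of Zyx and Ptk2b were smaller in Pim1-/- cells, with called differences of -1.56 and -1.14.

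Of 25 ligand genes 11 were tested, with 7 lower and 3 higher between untreated genotypes and 8 lower and 3 higher after LPS (medians -0.34 and -0.30), against the same shares and medians over all genes. Past 2-fold, 3 were called lower and 0 higher in each treatment, beside 3.37% and 4.4% of all genes without treatment and 5.15% and 3.51% after LPS. Thbs1 (thrombospondin-1) and C3 were called lower in Pim1-/- cells in both treatments, at log2 differences of -1.71 and -1.28 without treatment and -1.73 and -1.26 after LPS. Icam1, the LFA-1 and Mac-1 ligand, was at 31.4 ± 1.03 FPKM in untreated WT and 13.1 ± 0.400 FPKM in untreated Pim1-/- cells (-1.20), and at 1835 ± 20.9 and 1362 ± 84.4 FPKM after LPS. Vcam1, the VLA-4 ligand, was under 0.1 FPKM without treatment and reached 68.2 ± 1.70 FPKM after LPS in WT against 28.2 ± 1.76 FPKM in Pim1-/- cells (-1.25, and -1.24 for the difference in response). Spp1 (osteopontin), a ligand of αv and α4 integrins, rose from 1323 to 5170 FPKM in WT and from 1951 to 6527 FPKM in Pim1-/- cells. LPS called 5 ligand genes higher and 0 lower in each genotype, beside 20.1% and 14.7% of all tested genes in WT and 14.6% and 10.4% in Pim1-/- cells. These lists were chosen with earlier results of these data known, and their counts are descriptions. The counts, medians and differences of the lists were taken from the values as deposited, and their dependence on the scaling was not tested.

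**Figure D5:**
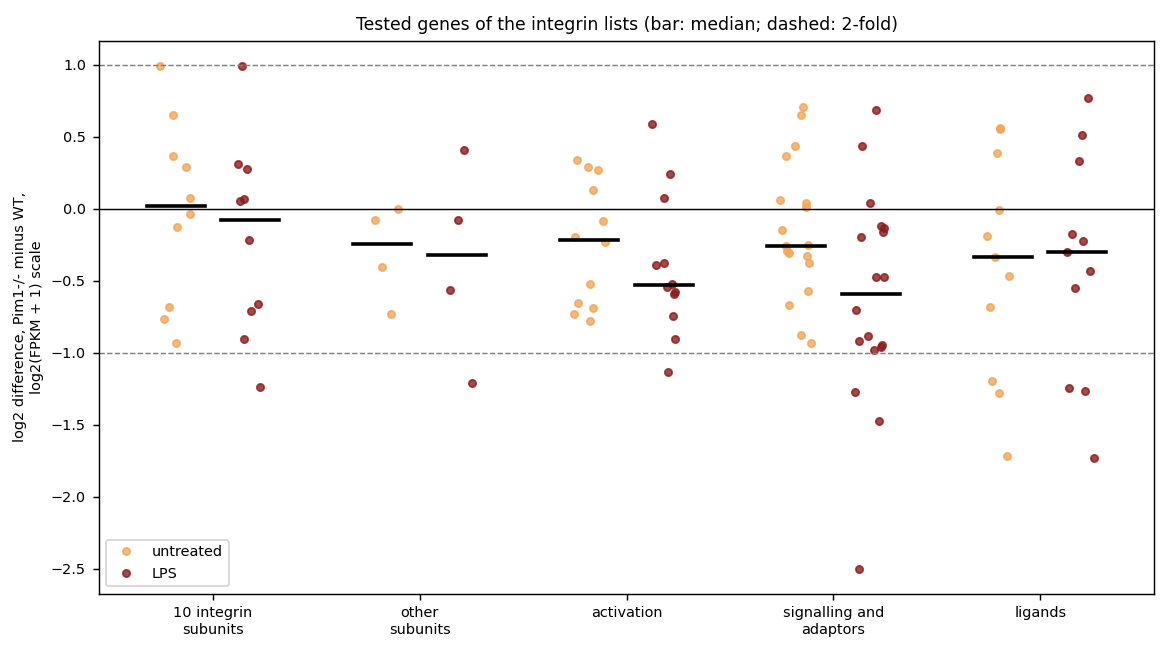
Log2 difference between Pim1-/- and WT cells (y axis, log2(FPKM + 1) scale) of each tested gene of the 10 integrin subunits and the 4 related lists, without treatment and after LPS: points are genes, bars are list medians, and dashed lines mark 2-fold. The medians of the activation and the signalling and adaptor lists go from -0.21 and -0.26 to -0.53 and -0.59, those of the 10 subunits stay within 0.1 of 0, and Zyx is the lowest point at -2.50.

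Genes whose levels ran most like a member over the 12 libraries were named by Pearson's r on log2(FPKM + 1), as a description of libraries that share treatment and genotype. For the LPS-raised subunits these were Zcchc6, Parp8 and Map3k8 for Itga4 (r = 0.9998 to 0.9994), Efna2, Cdkn1a and Actg1 for Itga5, Cd44, Pcgf5 and Armc8 for Itgav, Hivep2, Mid1 and Zdhhc18 for Itgal, and Dld, Nae1 and Anxa1 for Itgb1. Nrp1, Snx33 and Map3k1 ran most like Itga6 (r = 0.9987 to 0.9978). For the genes that sorted by genotype, Tacc3, Iqgap3 and Hmgn2 ran most like Itgb7 (r = 0.9944 to 0.993), Capn1, Setd5 and Chd4 most like Itgam (0.9927 to 0.9914), and Hspbp1, Rtel1 and Nckap1 most like Itgax (0.9288 to 0.9232). Itgb2, whose neighbouring groups in the order of means overlapped, had the loosest likeness, to 0610031J06Rik, Sh3tc1 and Foxk1 (0.9253 to 0.8992).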

How the data were processed

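RNA-seq was analysed in 12 libraries (4 groups of 3) made with a stranded mRNA kit. Per the labels, the submitters' processing notes name bcl2fastq 2.20.0.422, cutadapt 1.18, TopHat2 2.0.13, Cuffdiff 2.2.1 and the mouse build mm10, while the study's methods name a rat build, rn5; the gene symbols are those of mouse. The authors deposited 1 value per gene and library, read here as FPKM from Cuffdiff, with no read counts. The smallest values step in units of 1 fragment: 38 to 46 fragments per FPKM and kilobase in untreated and 21 to 32.25 in LPS-treated libraries, with 63.6% to 76.1% of the values examined whole within 0.05 of a fragment (10% by chance), so a count test was not run.

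Values were taken as log2(FPKM + 1), genes under 1 FPKM in all but 2 or fewer libraries were left out, and 4 group means were fitted to all 10581 genes with limma 3.58.1 (R 4.3.3) with a mean-variance trend and Benjamini-Hochberg adjustment. Calls needed more than 2-fold on the log2(FPKM + 1) scale, p under 0.05 and FDR under 0.1. Shares were compared by exact permutation in scipy 1.17.1. The fit was tested on simulated data. Alternatives were other pseudocounts, filters, scalings and fits, each library left out, and the replicate number as a block. Pairing was checked on 3646 genes with at least 10 FPKM in every library: deviations of same-numbered libraries correlated at 0.326 to 0.456 between untreated genotypes and 0.426 to 0.683 between treatments of Pim1-/- cells, where the numbers, which come from the sample titles, were taken to pair libraries, but not for the other comparisons (lowest 0.020 between treated genotypes and -0.103 between treatments of WT). Named genes were the 10 members, up to 4 called genes per list and comparison with the largest change, the 3 genes most like each member, and Pim1. Itgb5, the marker genes, Itga9 without treatment, Icam1 after LPS and Spp1 in WT were added for context. The members and the lists were chosen with earlier results of these data known. Promoters and gene starts came from RefSeq, and 7 of 10 members had an entry. Adgre1 is listed under its older symbol Emr1. Values of some listed genes are not reported here.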

Additional observations from a re-analysis of the deposited data

Results flagged for a closer look

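For 8 of the 10 genes the LPS response differed between WT and Pim1-/- cells by a test of the difference itself (limma, adjusted over all tested genes). The response in Pim1-/- minus that in WT, on the log2(FPKM + 1) scale, was -1.20 for Itgal, -0.78 for Itga5, -0.58 for Itgav, -0.37 for Itgb1 and -0.22 for Itgam. It was 0.83 for Itga6, 0.27 for Itga4 and 0.18 for Itgb2. Among all tested genes 34.7% had a lower and 31.3% a higher response by the same rule, so such differences were common and not particular to the members. That of Itgam did not pass under a common FPKM sum, at -0.07, or under quantile normalization, at 0.15. That of Itgb1 did not pass under quantile normalization, at -0.12.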

How the results depend on the processing

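The limits of these data are the scaling and the number of libraries. Total FPKM rose with LPS, so that with the scaling small LPS responses turn and large ones change in size. In addition, 3 against 3 libraries cannot take an exact test below 0.1. Of the members' log2 differences under alternative settings, 745 kept both direction and side of the 2-fold call, 27 changed direction, 17 moved past the call and 6 fell short of it; the replicate block changed no call (it left 0 members called between untreated genotypes and 6 with LPS in Pim1-/- cells), and the cause of the changes was not tested.

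Without a fold threshold, at FDR under 0.05, 8 members passed in both genotype comparisons and in the difference in LPS response. Between untreated genotypes the count of 0 became 2 with a pseudocount of 0.1 FPKM or quantile normalization and 1 with median-ratio scaling or a common FPKM sum, a scaling chosen after seeing the data, and ran from 0 to 1 with each library left out. After LPS the count of 1 became 2 with the smaller pseudocount or the common sum and ran from 1 to 2 with each library left out. The count for the difference in response became 0 under quantile normalization.

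Quantile normalization gave LPS changes of the Itgax share of 0.401 points in WT and 0.325 in Pim1-/- cells, and of the Itga5 share of -1.237 in Pim1-/- cells. It gave log2 values of 0.039 for Itgav between treated genotypes, -0.638 and -0.486 for Itgam with LPS in WT and Pim1-/- cells, -0.841 for Itgb2 with LPS in Pim1-/- cells, and 0.152 for Itgam and -0.118 for Itgax in the difference in response. The common sum gave 0.013 for Itgal between untreated genotypes, -0.436 and -0.547 for Itgam and Itgax with LPS in WT, -0.509, -0.442 and -0.644 for Itgam, Itgax and Itgb2 with LPS in Pim1-/- cells, and 0.113 for Itgb7 in the difference in response, which was 0.004 with the smaller pseudocount. With each library left out, the LPS change of the Itga5 share in Pim1-/- cells ran from -0.42 to 1.022 points, Itgal between untreated genotypes from -0.074 to 0.005, Itgb2 with LPS in Pim1-/- cells from -0.03 to 0.058, and the difference in response from -0.028 to 0.068 for Itgax and from -0.035 to 0.041 for Itgb7.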
